A study of Mus musculus with 45 samples.

Results

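Integrins are paired cell surface receptors of an α and a β chain through which leukocytes stop on vessel walls, hold on to partner cells and grip the matrix. The 10 genes described here are 8 integrin chains and 2 of their ligands, chosen by name among the 55450 genes of the count table, and all 10 were found in it. Itgal (CD11a) and Itgb2 (CD18) form LFA-1, which binds ICAM-1 and ICAM-2, the products of Icam1 and Icam2. Itga4 (CD49d) pairs with Itgb7 or Itgb1 (CD29), and these pairs bind MAdCAM-1 and VCAM-1. Itga6 (CD49f) and Itgav (CD51) code for α chains that meet laminins and RGD-containing matrix proteins, and Itgae (CD103) for the α chain that pairs with Itgb7 to bind E-cadherin. In germinal centers (GC), LFA-1 on T cells and ICAM-1 on B cells are known for holding T follicular helper (Tfh) cells and B cells together, while integrins that bind vessel ligands serve recirculation.

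Transcripts were counted by RNA-sequencing in 45 libraries of cells sorted from draining lymph nodes of wild-type (WT) littermates and of mice that lack S1PR4, a receptor for sphingosine-1-phosphate (S1PR4-/-, strain B6.129P2-S1pr4tm1Dgen/J, a germline knockout crossed to C57/BL6 for 10 or more generations). Mice of both genotypes, of either sex and 8 to 12 weeks old, had received, in 20 µl of IFA in the footpad, LPS (5 µg) together with OVA (50 µg). Tfh cells (CD4+ PD1+ CXCR5+) and non-Tfh cells (CD4+ PD1- CXCR5-) were sorted on Day 6, and GC B cells (B220+ GL7+ Fas+) and non-GC B cells (B220+ GL7- Fas-) on Day 9, so that lineage and day cannot be told apart. Each population and genotype had 6 libraries, except non-GC B cells with 5 WT and 4 S1PR4-/- libraries. The study's methods count 6 mice of each genotype for these sorts, but do not tie single libraries to mice, and p-values measure the spread between these libraries.

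Depth ran from 26299429 to 45548215 expected counts per library. S1pr4 had between 505 and 6305 counts in the WT libraries and between 0 and 40 in the S1PR4-/- libraries. The summed level of 12 T cell markers was 7076 to 9383 CPM in T cell libraries and 68.2 to 204.2 CPM in B cell libraries, and that of 12 B cell markers was 7390 to 16360 CPM in B cell libraries, 146.6 to 452.8 CPM in Tfh and 9.33 to 49.3 CPM in non-Tfh libraries. The sorts also held their defining genes, with 8 Tfh markers at 2660 to 4094 CPM in Tfh against 208.7 to 486.4 CPM in non-Tfh libraries and 9 GC B markers at 1742 to 3189 CPM in GC B against 156.3 to 219.6 CPM in non-GC B libraries. By Xist and Ddx3y, 5 of 6 WT but 2 of 6 S1PR4-/- libraries of both T cell populations were female, whereas both genotypes of GC B cells had 3 of 6. In 1 library, S1PR4-/- GC B replicate 3, 8 plasma cell markers summed to 17950 CPM, against 2061 to 8886 CPM in the other GC B libraries of both genotypes. In bulk libraries such as these, fewer cells that carry a transcript and less transcript per cell cannot be told apart. Levels are given as CPM, the expected count scaled by the normalized library size. FDR is the Benjamini-Hochberg adjusted p over all genes tested with edgeR's quasi-likelihood test, and a gene was called at an FDR under 0.05 together with a fold change over 1.5.

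RefSeq promoter windows (GRCm38.p6, 250 bases before to 50 after the annotated start) were at hand for 5 of the 10 genes, Itga4, Itgb7, Itgb1, Itgav and Icam1. For Itgal, Itgb2, Itga6, Itgae and Icam2 none is shown. The 4 windows printed belong, among those at hand, to the 3 chains with the largest differences within a lineage and to the gene with the widest difference between genotypes. They lie at chr2:79255176-79255475 (plus strand) for Itga4, chr15:102231886-102232185 (minus strand) for Itgb7, chr8:128685404-128685703 (plus strand) for Itgb1 and chr9:21015690-21015989 (plus strand) for Icam1. Capitals mark the CACCC box, which Krüppel-like factors recognize (CACCC, or GGGTG on the other strand), and in Icam1 also the core of its κB element (GGAAATT) and a TATA box (TATAAA). Both strands were searched, the motifs were chosen after the sequences had been seen, and no 2 matches overlap.
Itga4: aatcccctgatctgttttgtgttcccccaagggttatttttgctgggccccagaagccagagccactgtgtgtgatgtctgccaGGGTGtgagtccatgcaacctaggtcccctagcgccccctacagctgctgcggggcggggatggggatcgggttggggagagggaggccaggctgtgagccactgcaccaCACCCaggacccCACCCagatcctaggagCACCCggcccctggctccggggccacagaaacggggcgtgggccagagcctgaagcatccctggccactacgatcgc
Itgb7: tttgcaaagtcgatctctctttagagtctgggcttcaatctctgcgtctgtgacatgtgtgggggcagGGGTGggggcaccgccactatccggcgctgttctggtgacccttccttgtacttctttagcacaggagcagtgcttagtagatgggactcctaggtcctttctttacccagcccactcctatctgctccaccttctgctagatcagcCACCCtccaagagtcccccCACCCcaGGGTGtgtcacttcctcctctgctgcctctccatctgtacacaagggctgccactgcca
Itgb1: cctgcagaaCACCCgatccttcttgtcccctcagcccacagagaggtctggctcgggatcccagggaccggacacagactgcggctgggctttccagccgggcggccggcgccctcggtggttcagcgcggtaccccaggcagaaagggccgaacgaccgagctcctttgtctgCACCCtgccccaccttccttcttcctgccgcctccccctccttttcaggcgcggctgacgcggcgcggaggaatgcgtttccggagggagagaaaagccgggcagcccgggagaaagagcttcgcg
Icam1: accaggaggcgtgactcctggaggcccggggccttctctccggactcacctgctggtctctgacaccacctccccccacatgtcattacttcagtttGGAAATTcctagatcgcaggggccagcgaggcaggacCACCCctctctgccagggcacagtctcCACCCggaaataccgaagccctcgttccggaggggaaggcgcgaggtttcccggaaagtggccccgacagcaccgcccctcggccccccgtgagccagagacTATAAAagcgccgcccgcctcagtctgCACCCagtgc
The Itga4 and Itgb7 windows each hold 4 CACCC matches, that of Icam1 holds 3, that of Itgb1 holds 2 and that of Itgav holds 1. Of 32851 promoter windows of the same length, 57.5% hold at least 1 match and 3.1% hold 4 or more. The κB core of Icam1, at position -153 from the annotated start, is in 3.69% of the windows, and the TATA box, at position 13 after that start, in 13.6%. Positions count from the RefSeq start, which for Icam1 lies upstream of the gene start in the annotation used for the coordinates below. These matches describe the letters of the windows and not a bound factor.

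The first question was how the integrin repertoire of Tfh cells differed from that of other CD4+ T cells of the same nodes. In WT mice Itgal and Itgb1 rose and Itga4, Itga6 and Icam2 fell in Tfh cells, so that 5 of 10 genes were called, while 43.2% of the 13481 genes tested were called in this comparison. A share near that of all genes is no result about integrins as a class, but the direction of single chains was distinct. The median log2 fold change of the 10 genes was 0.27, and that of all genes tested was 0.00. B cell markers summed to 146.6 to 452.8 CPM in WT Tfh and 11.47 to 49.31 CPM in WT non-Tfh libraries, with no overlap. The 5 genes were also called with the B cell marker score as a covariate. Because these markers follow the groups compared, that fit cannot tell the part of B cell transcripts from the difference between the sorts. Regulatory T cell markers (6 genes, 547.1 to 1039 against 228.3 to 532.3 CPM) and plasma cell markers (8 genes, 285.2 to 662.0 against 117.0 to 164.5 CPM) were also higher in WT Tfh than in WT non-Tfh libraries, and their part was not tested.

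Of the LFA-1 chains, Itgal (chr7:127296260-127335138, plus strand, mm10) was found at 1309 to 1641 CPM in the 6 WT Tfh libraries (median 1477) and at 483.8 to 687.2 CPM in the 6 WT non-Tfh libraries (median 639.7). The groups did not overlap, and the log2 fold change was 1.27 (SE 0.08, FDR = 6.88e-09). Itgb2 (chr10:77530252-77565708, plus strand), the common β2 chain, was found at 988.7 to 1175 CPM in Tfh and 784.7 to 922.9 CPM in non-Tfh cells. These ranges did not overlap either, yet the log2 fold change of 0.39 (SE 0.06, FDR = 2.09e-05) stayed under the fold threshold. Per kilobase of annotated exon, the Itgal level was 61.4 to 64.9% of the Itgb2 level in the WT Tfh libraries and 28.6 to 40.1% in the WT non-Tfh libraries, so the α chain moved closer to its β partner in Tfh cells.

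Chains of the α4 integrins moved in opposite directions. Itga4 (chr2:79255426-79333123, plus strand) was at 6.72 to 15.7 CPM in WT Tfh cells (median 9.16) and at 52.2 to 102.2 CPM in WT non-Tfh cells (median 83.3). No Tfh library came near the lowest non-Tfh library, and Itga4 fell by 2.95 on the log2 scale (SE 0.21, FDR = 1.43e-08). Itgb1 (chr8:128685654-128733200, plus strand), the β chain shared with α6 and many other α chains, rose from 136.1 to 297.4 CPM in non-Tfh (median 200.1) to 739.1 to 933.4 CPM in Tfh cells (median 854.9), a log2 fold change of 1.98 (SE 0.17, FDR = 1.05e-07). Itgb7 (chr15:102215995-102231944, minus strand) ranged over 921.8 to 1190 CPM in Tfh and 1413 to 1683 CPM in non-Tfh cells. All 6 Tfh libraries were below all 6 non-Tfh libraries, but its log2 fold change of -0.45 (SE 0.07, FDR = 5.12e-05) was under the fold threshold. Per kilobase, Itgb7 was therefore 719.3 to 1564% of Itgb1 in non-Tfh cells and 164.9 to 211.9% in Tfh cells.

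Among the other α chains, Itga6 (chr2:71745616-71858416, plus strand) was at 56.4 to 68.6 CPM in WT Tfh and 243.3 to 315.1 CPM in WT non-Tfh cells. It fell by 2.13 on the log2 scale (SE 0.08, FDR = 3.04e-11), with no overlap. Itgav (chr2:83724397-83806916, plus strand) overlapped between Tfh cells (18.1 to 31.0 CPM) and non-Tfh cells (15.3 to 28.5 CPM), with a log2 fold change of 0.38 (SE 0.16, FDR = 0.0450). That FDR was between 0.0552 and 0.103 in 10 of 12 fits that each left out 1 library, the exceptions being those without Tfh replicate 1 or non-Tfh replicate 3, and the log2 fold change was 0.72 (FDR = 0.0168) with the B cell marker score as a covariate. Itgae (chr11:73090583-73147446, plus strand) was at 22.8 to 36.6 CPM in Tfh and 13.4 to 37.7 CPM in non-Tfh cells (log2 fold change 0.17, SE 0.22, FDR = 0.493). Of the ligands, Icam2 (chr11:106377656-106388075, minus strand) fell from 68.8 to 103.6 CPM in non-Tfh to 42.8 to 63.7 CPM in Tfh cells, by 0.72 on the log2 scale (SE 0.11, FDR = 3.22e-05). Icam1 (chr9:21015985-21028817, plus strand) was at 70.8 to 99.9 CPM in Tfh and 44.8 to 84.0 CPM in non-Tfh cells, with a log2 fold change of 0.37 (SE 0.14, FDR = 0.0290) under the fold threshold. Its log2 fold change was 0.27 (FDR = 0.309) with the B cell marker score as a covariate, and the FDR passed 0.05 without Tfh replicate 3 (0.0653) or 6 (0.0513) and without non-Tfh replicate 2 (0.0685) or 4 (0.0542).

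**Figure D1:**
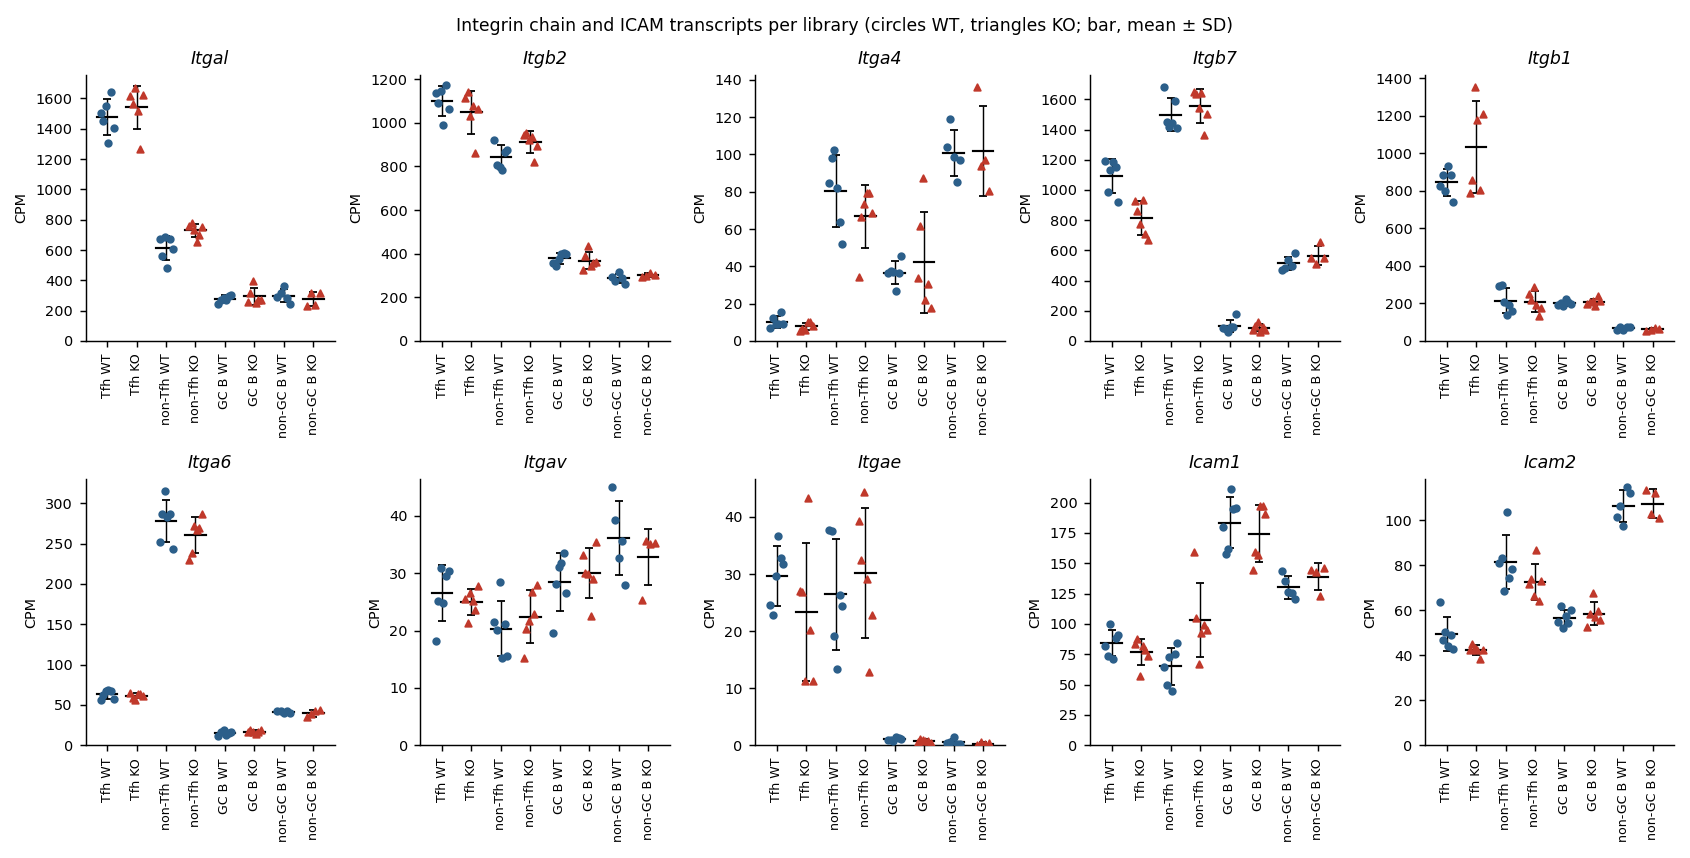
Each panel plots the CPM of 1 gene (vertical axis, from 0) in every library of the 8 groups, with circles for WT, triangles for S1PR4-/- (KO) and bars for the mean ± SD. Itgal and Itgb1 are highest in Tfh cells, Itga6 in non-Tfh cells and Icam1 in GC B cells, and Itga4 is lowest in Tfh cells (6.72 to 15.7 CPM in WT).

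The same question was asked of B cells. In WT mice Itgb1 rose and Itga4, Itgb7, Itga6 and Icam2 fell in GC B cells against non-GC B cells, so that again 5 of 10 genes were called, beside 47.8% of the 13324 genes tested. The median log2 fold change of the 10 genes was -0.16, against 0.00 for all genes tested. Plasma cell markers summed to 4044 to 8886 CPM in WT GC B and 512.8 to 860.8 CPM in WT non-GC B libraries. Dendritic cell markers (6 genes) summed to 73.0 to 110.4 and 6.33 to 54.7 CPM in the same groups, and the part of either in these differences was not tested.

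Of the LFA-1 chains, Itgb2 was higher in GC B than in non-GC B cells, while Itgal did not differ beyond its spread. Itgal was at 243.2 to 304.5 CPM in the 6 WT GC B libraries and at 287.2, 319.5, 362.6, 282.6 and 244.6 CPM in the 5 WT non-GC B libraries. The groups overlapped over most of their range (log2 fold change -0.04, SE 0.10, FDR = 0.748). Itgb2 was at 341.4 to 403.4 CPM in GC B and at 292.3, 277.0, 315.3, 290.2 and 260.0 CPM in non-GC B cells, with a log2 fold change of 0.46 (SE 0.07, FDR = 6.59e-05). All GC B libraries were above all non-GC B libraries for Itgb2, although the fold threshold was not reached.

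Both partners of the α4β7 pair fell in GC B cells. Itga4 was at 26.9 to 45.6 CPM in GC B cells (median 36.9) and at 103.8, 119.2, 98.7, 85.1 and 97.1 CPM in non-GC B cells. It fell by 1.39 on the log2 scale (SE 0.12, FDR = 5.96e-07). Itgb7 was at 60.2 to 176.9 CPM in GC B cells (median 88.5) and at 471.5, 484.7, 533.8, 499.4 and 581.1 CPM in non-GC B cells. Its fall of 2.33 (SE 0.21, FDR = 1.01e-06) was the largest of the 10 genes in B cells, and neither chain overlapped between the groups. GC B replicate 6, at 176.9 CPM Itgb7, was the only GC B library above 91.7 CPM. Itgb1 moved the other way, from 60.5, 74.7, 60.5, 72.2 and 72.7 CPM in non-GC B cells to 185.0 to 220.9 CPM in GC B cells, or by 1.63 on the log2 scale (SE 0.08, FDR = 5.35e-09). Per kilobase, Itgb7 was 956.0 to 1301% of Itgb1 in non-GC B cells and 47.9 to 131.0% in GC B cells.

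Itga6 fell by 1.37 (SE 0.12, FDR = 7.32e-07), from 39.6 to 42.6 CPM in the 5 non-GC B libraries to 11.7 to 19.2 CPM in the 6 GC B libraries. Itgav was at 19.5 to 33.5 CPM in GC B and 27.9 to 45.0 CPM in non-GC B cells (log2 fold change -0.28, SE 0.15, FDR = 0.116). Itgae was near the lower end of detection in B cells, at 0.73 to 1.46 CPM in GC B cells and at 0.36, 0.52, 1.39, 0.26 and 0.21 CPM in non-GC B cells. The log2 fold change of Itgae was 0.98 (SE 0.47, FDR = 0.0843), and without WT non-GC B replicate 3 it was 1.69 (FDR = 0.00196). Markers of natural killer cells (6 genes), dendritic cells (6 genes) and CD8 T cells (2 genes) summed to 5.23, 6.33 and 0.18 CPM in that library, and were high in WT non-GC B replicates 4 (60.0, 51.3 and 8.87 CPM) and 5 (28.4, 54.7 and 7.002 CPM), where Itgae was lowest. Plasma cell markers were highest in replicate 3 (860.8 CPM). Itgae had 6 to 53 counts in the WT non-GC B libraries, and the part of any of these cell types in it was not tested. Icam2 fell by 0.84 (SE 0.07, FDR = 3.20e-07), from 97.4 to 114.7 CPM in non-GC B to 52.3 to 61.7 CPM in GC B cells. Icam1, which B cells raise upon activation, was at 158.0 to 211.2 CPM in GC B and at 143.3, 135.1, 125.9, 125.8 and 120.1 CPM in non-GC B cells. These groups did not overlap, and the log2 fold change of 0.56 (SE 0.08, FDR = 4.95e-05) lay just under the fold threshold, which it passed without GC B replicate 2 or 3 or without non-GC B replicate 1 (0.60 each).

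**Figure D2:**
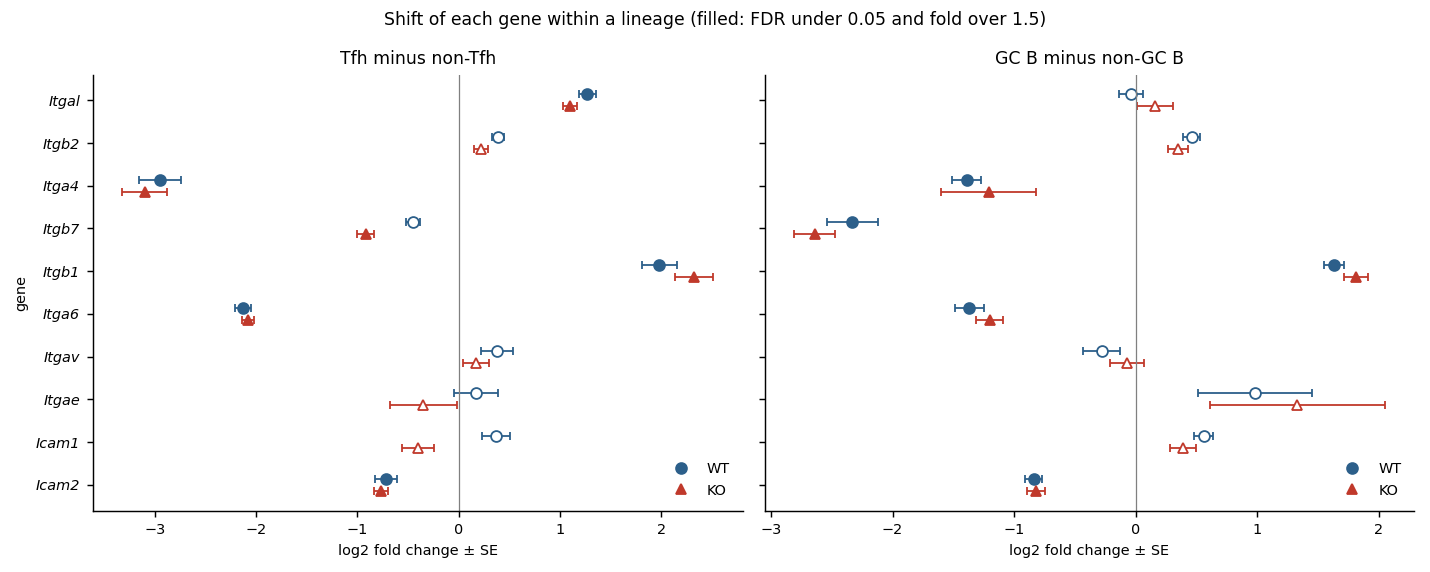
The horizontal axis shows the log2 fold change ± SE of each gene between Tfh and non-Tfh cells (left) and of GC B over non-GC B cells (right), with circles for WT, triangles for S1PR4-/- (KO) and filled symbols for genes called. Itgb1 lies to the right of 0 and Itga4, Itga6 and Icam2 to the left of 0 in both lineages and both genotypes, while the symbols of Itgal are filled in the T cell panel and open in the B cell panel.

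To see where both lineages differed, the shift from non-GC B to GC B cells was tested against the shift from non-Tfh to Tfh cells in WT mice. Of all genes tested, 41.7% had an FDR under 0.05, and 5 of the 10 genes did. Itgal had the clearest difference, with a B cell shift lower than the T cell shift by 1.37 on the log2 scale (SE 0.13, FDR = 2.87e-08). The fall of Itgb7 was larger in B cells by 1.94 (SE 0.23, FDR = 5.79e-07), whereas the fall of Itga4 was smaller in B cells by 1.5 (SE 0.25, FDR = 5.50e-05) and that of Itga6 by 0.69 (SE 0.13, FDR = 0.000219). For Itgav the shifts differed by -0.73 (SE 0.23, FDR = 0.0148). The rise of Itgb1 differed by -0.41 (SE 0.20, FDR = 0.107), a difference that passed the threshold without WT non-Tfh replicate 1 (-0.52, FDR = 0.0301) or 2 (-0.53, FDR = 0.0254), the libraries with the highest Itgb1 of that group at 293.7 and 297.4 CPM. Shifts of Itgb2 (difference 0.01, SE 0.09), Icam1 (0.13, SE 0.18) and Icam2 (-0.19, SE 0.13) had FDRs of 0.932, 0.609 and 0.283. For Itgae the difference of 0.72 (SE 0.47, FDR = 0.239) became 1.44 (FDR = 0.00634) without WT non-GC B replicate 3.

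Levels across the 4 WT populations were then put in order. Itgal, Itgb2 and Itgb1 had their highest mean in Tfh cells (1477 ± 116.0, 1100 ± 67.3 and 844.2 ± 69.7 CPM, SD, n = 6), Itgb7 and Itga6 in non-Tfh cells (1499 ± 111.0 and 277.8 ± 26.2 CPM, SD, n = 6), Icam1 in GC B cells (183.5 ± 20.9 CPM, SD, n = 6) and Itga4 and Icam2 in non-GC B cells, where n = 5 (mean CPM of 100.8 ± 12.4 and 106.5 ± 7.25). For Itgb2, Itgb7 and Itga6, each neighbor in the order differed from the next with no overlap of libraries, although the difference of Itga6 between non-GC B and Tfh cells (-0.61, SE 0.07) fell under the fold threshold without Tfh replicate 4 (-0.58). Itgal stood in the order Tfh, non-Tfh, non-GC B and GC B cells, and the last pair did not differ beyond its spread. Itgb1 did not differ between non-Tfh cells (214.5 ± 67.5 CPM) and GC B cells (201.3 ± 12.9 CPM, log2 fold change -0.03, SE 0.16, FDR = 0.878). Itga4 stood in the order non-GC B, non-Tfh, GC B and Tfh cells, and its first pair overlapped (100.8 ± 12.4 against 80.5 ± 19.5 CPM, log2 fold change 0.39, SE 0.16, FDR = 0.0488), a difference that lost the threshold in 8 of 11 fits without 1 library. Icam1 stood in the order GC B, non-GC B, Tfh and non-Tfh cells, with both B cell populations above both T cell populations. Between lineages this was opposite to the LFA-1 chains that bind its product. Within lineages Icam1 and Itgb2 both had the higher mean in Tfh and in GC B cells. Icam2 stood in the order non-GC B, non-Tfh, GC B and Tfh cells, where GC B and Tfh cells overlapped (56.7 ± 3.66 and 49.5 ± 7.50 CPM, FDR = 0.0598). Itgav had the narrowest ratio of population means of the 10 genes, from 20.3 ± 4.85 CPM in non-Tfh to 36.1 ± 6.48 CPM in non-GC B cells, and every neighboring pair overlapped.

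Between lineages, non-GC B cells were called against non-Tfh cells for 8 of 10 genes (38.9% of 13669 genes tested), with Itgav and Icam1 higher and Itgal, Itgb2, Itgb7, Itgb1, Itga6 and Itgae lower in B cells. GC B cells were called against Tfh cells for 8 of 10 genes (44.3% of 13719), with Itga4 and Icam1 higher and Itgal, Itgb2, Itgb7, Itgb1, Itga6 and Itgae lower. The crossed comparisons called 7 of 10 genes for GC B against non-Tfh cells (56.4% of 13674) and 9 of 10 for non-GC B against Tfh cells (54.8% of 13905). The largest difference in both like-for-like comparisons was that of Itgae, at -5.46 (SE 0.46, FDR = 2.28e-07) for non-GC B against non-Tfh cells and -4.80 (SE 0.19, FDR = 7.53e-11) for GC B against Tfh cells. B cell libraries of both genotypes held at most 1.46 CPM Itgae, next to 11.3 CPM or more in every T cell library. The 12 T cell markers summed to at most 204.2 CPM in the same B cell libraries, and the part of T cells in the Itgae of B cell libraries was not tested. Itgb7 differed by -3.48 (SE 0.22, FDR = 7.79e-09) between GC B and Tfh cells but by -1.48 (SE 0.07, FDR = 1.00e-09) between non-GC B and non-Tfh cells.

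Because genes differ in length, chains were compared with each other only per kilobase of merged exons. In WT Tfh cells Itgb7 (395.4 ± 40.7 CPM per kb), Itgb2 (360.4 ± 22.1), Itgal (224.8 ± 17.7) and Itgb1 (206.9 ± 17.1) formed the upper range, and Itga6 (7.03 ± 0.61), Itgae (6.49 ± 1.14), Itgav (2.47 ± 0.45) and Itga4 (0.74 ± 0.23) the lower range of CPM per kb (SD, n = 6). In WT non-Tfh cells the α chain that followed Itgal (93.5 ± 12.1 CPM per kb) was Itga6 (30.8 ± 2.91). In WT GC B cells Itgb2 (124.1 ± 8.37 CPM per kb), Itgb1 (49.3 ± 3.15), Itgal (42.5 ± 3.33) and Icam1 (42.1 ± 4.79) led, with Itgb7 at 35.3 ± 14.6. With the longest transcript as the length, Icam1 (72.4 ± 8.24 CPM per kb) stood above Itgal (53.4 ± 4.19) and Itgb1 (52.8 ± 3.37). In WT non-GC B cells Itgb7 (185.6 ± 15.9 CPM per kb, SD, n = 5) led over Itgb2 (94.0 ± 6.69) and Icam2 (55.9 ± 3.81), and Itgb1 was at 16.7 ± 1.72. Per kilobase of merged exons, Itga4, Itga6 and Itgav were below Itgb1 in each WT library. With the longest transcript as the length, mean Itga6 was above mean Itgb1 in WT non-Tfh cells (64.5 against 56.2 CPM per kb). The Itga4 level was 0.24 to 0.52% of Itgb1 in Tfh and 34.4 to 50.1% in non-GC B cells per kilobase, and the Itga6 level was 3.08 to 3.82% in Tfh and 38.8 to 94.0% in non-Tfh cells.

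**Figure D3:**
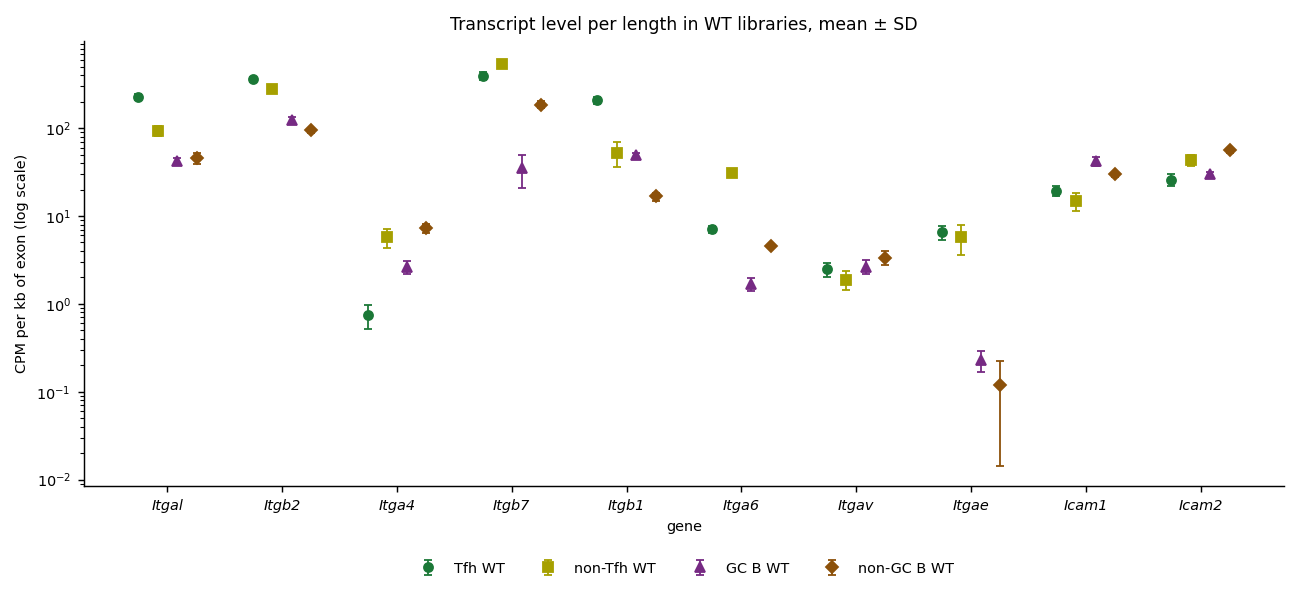
The vertical axis, a log scale, shows the level of each gene as CPM per kb of merged exons in the 4 WT populations, as mean ± SD (n = 6, and 5 for non-GC B). Itgb2 stays within 94.0 to 360.4 CPM per kb in the 4 populations, whereas Itga4, Itgae and Itgav are under 10 CPM per kb in each.

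The second question was whether loss of S1PR4 altered these transcripts. In none of the 4 populations was any of the 10 genes called between S1PR4-/- and WT mice with edgeR on the 2 groups compared. At an unadjusted p under 0.05 there were 3 of 10 genes in Tfh cells (19.2% of all genes tested), 3 in non-Tfh cells (11.3%), and 0 in GC B (4.13%) and non-GC B cells (4.55%). Icam1 in non-Tfh cells was the only call of the 10 genes under other settings, and was made by DESeq2 and by the edgeR fit of all 8 groups. Of all genes tested, 0.496% were called in Tfh, 0.114% in non-Tfh, 0.0612% in GC B and 0.0537% in non-GC B cells. These fits do not show that the genes are equal in both genotypes, and the standard errors give the size that could be seen.

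Itgb7 in Tfh cells came closest. Its level was 921.8 to 1190 CPM in the WT libraries (median 1143) and 666.9 to 935.3 CPM in the S1PR4-/- libraries (median 816.5). Only WT replicate 6, at 921.8 CPM, lay among the S1PR4-/- values. The log2 fold change was -0.44 (SE 0.09, FDR = 0.0401), under the fold threshold, and 1.41% of all genes tested had an FDR under 0.05. This FDR was 0.164 when all 8 groups shared a fit and 0.150 with the B cell marker score as a covariate. With Xist as a covariate it was 0.0344, with DESeq2 0.00073 and with limma voom 0.0398. RLE size factors gave 0.0428, total counts 0.0298 and no filter on low counts 0.0396. The replicate number as a block gave 0.025, but that block joined WT and S1PR4-/- libraries of the same number, which nothing in the design pairs. Without single libraries the FDR lay between 0.0189 and 0.101. The FDR was 0.05 or more in 7 of those 12 fits, namely without S1PR4-/- replicate 1 (0.0552), 5 (0.0856) or 6 (0.0713) and without WT replicate 1 (0.0665), 2 (0.0651), 3 (0.101) or 5 (0.101). Female Tfh libraries alone held 921.8 to 1190 CPM in WT (n = 5) and 710.5 and 935.3 CPM in S1PR4-/- mice, and male libraries held 1132 CPM in WT (n = 1) and 666.9 to 927.3 CPM in S1PR4-/- mice (n = 4). B cell markers summed to 146.6 to 452.8 CPM in WT and 148.7 to 276.4 CPM in S1PR4-/- Tfh libraries. The library with the lowest Itgb7, S1PR4-/- replicate 6, stood apart with myeloid markers (8 genes) at 433.4 CPM, against 20.9 to 87.7 CPM in the other Tfh libraries, and with the lowest regulatory T cell markers of the Tfh libraries (451.8 CPM). Without it the log2 fold change of Itgb7 was -0.39 (FDR = 0.0713).

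Other genes in Tfh cells had FDRs of 0.154 or more. Icam2 was at 42.8 to 63.7 CPM in WT and 38.5 to 45.0 CPM in S1PR4-/- libraries (log2 fold change -0.24, SE 0.09, FDR = 0.154). Itgb1 was at 739.1 to 933.4 CPM in WT and 788.5 to 1354 CPM in S1PR4-/- libraries (log2 fold change 0.28, SE 0.13, FDR = 0.251), where replicates 3, 4 and 6 exceeded every WT library. Itga4 was at 6.72 to 15.7 and 5.37 to 10.3 CPM (log2 fold change -0.43, SE 0.21, FDR = 0.293). By sex, Itga4 was at 10.1 and 10.3 CPM in female and 5.37 to 8.15 CPM in male S1PR4-/- libraries. WT females held 6.72 to 15.7 CPM (n = 5) and the WT male 9.03 CPM. Itgal had 1309 to 1641 CPM in WT and 1269 to 1668 CPM in S1PR4-/- Tfh cells (log2 fold change 0.06, SE 0.07, FDR = 0.718).

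In non-Tfh cells Icam1 had the largest difference. Its WT libraries held 44.8 to 84.0 CPM (median 68.5) and its S1PR4-/- libraries 66.8 to 159.1 CPM (median 97.2). All S1PR4-/- libraries but replicate 3 exceeded every WT library, and replicate 1 was the highest. The log2 fold change was 0.66 (SE 0.18, FDR = 0.170 with edgeR). DESeq2 (FDR = 0.0193) and the fit of all 8 groups (FDR = 0.0246) called it, whereas Xist as a covariate gave 0.57 (SE 0.20, FDR = 0.577). Female libraries alone held 44.8 to 84.0 CPM in WT (n = 5) and 92.7 and 99.2 CPM in S1PR4-/- mice. Male libraries held 72.9 CPM in WT (n = 1) and 66.8 to 159.1 CPM in S1PR4-/- mice (n = 4). Regulatory T cell markers (6 genes) summed to 228.3 to 532.3 CPM in WT and 420.2 to 862.9 CPM in S1PR4-/- non-Tfh libraries, and were highest in S1PR4-/- replicate 1. With their score as a covariate, an alternative chosen after seeing the data, the log2 fold change of Icam1 was 0.51 (SE 0.20, FDR = 0.634). Itgal, at 483.8 to 687.2 CPM in WT and 652.2 to 775.5 CPM in S1PR4-/- libraries, had a log2 fold change of 0.25 (SE 0.08, FDR = 0.229). Its level was 483.8 to 671.0 CPM in WT females (n = 5) and 652.2 and 699.5 CPM in S1PR4-/- females. The WT male held 687.2 CPM and S1PR4-/- males 733.6 to 775.5 CPM (n = 4).

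In B cells the genotypes could not be separated at this spread. FDRs were 0.985 or more in GC B and 0.981 or more in non-GC B cells. Dendritic cell markers varied among non-GC B libraries, at 6.33 to 6.62 CPM in WT replicates 1 to 3 and 51.3 and 54.7 CPM in 4 and 5. In S1PR4-/- non-GC B cells they were at 13.5 CPM in replicate 1 and 25.4 to 42.1 CPM in replicates 2 to 4. The part of this mix in the comparison of genotypes was not tested. Itgal was at 243.2 to 304.5 CPM in WT and 247.2 to 398.8 CPM in S1PR4-/- GC B cells (log2 fold change 0.07, SE 0.12). Icam1 was at 158.0 to 211.2 and 144.1 to 197.4 CPM (log2 fold change -0.08, SE 0.09). Itga4 spread more widely among the 6 S1PR4-/- GC B libraries (17.6 to 87.5 CPM) than among the 6 WT libraries (26.9 to 45.6 CPM). Its 2 highest S1PR4-/- values, 87.5 and 61.9 CPM, were in replicates 3 and 2, which also had the highest plasma cell marker levels of that group (17950 and 8504 CPM). WT replicate 2, with the highest plasma cell markers of the WT group (8886 CPM), held 37.55 CPM Itga4. S1PR4-/- replicates 1 to 3 had plasma cell markers at 5701 to 17950 CPM and Itga4 at 33.9 to 87.5 CPM. Replicates 4 to 6 of that group had 2061 to 2468 CPM and 17.6 to 30.5 CPM. In WT, replicates 1 to 3 had markers at 5093 to 8886 CPM and Itga4 at 36.6 to 37.6 CPM. WT replicates 4 to 6 had 4044 to 4569 CPM and 26.9 to 45.6 CPM. The part of plasma cells in these values was not tested. The log2 fold change of Itga4 was 0.21 (SE 0.34), and -0.15 (FDR = 0.922) without S1PR4-/- replicate 3. With the plasma cell marker score as a covariate, an alternative chosen after seeing the data, it kept its direction and side of the threshold. In non-GC B cells Itga4 was at 136.3, 93.6, 97.1 and 80.2 CPM in the 4 S1PR4-/- libraries (log2 fold change 0.02, SE 0.14). Itgae, with S1PR4-/- non-GC B libraries at 0, 0.63, 0.17 and 0.41 CPM, gave a log2 fold change of -0.87 (SE 0.91), so that no difference was detectable at this depth.

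Itgb2 lies 3.93 Mb from S1pr4 on chromosome 10, within reach of flanking DNA that a targeted strain can retain. Its log2 fold changes between genotypes were -0.08 (SE 0.07) in Tfh, 0.11 (SE 0.05) in non-Tfh, -0.04 (SE 0.08) in GC B and 0.07 (SE 0.07) in non-GC B cells, with FDRs from 0.436 to 0.995. The other 9 genes lie on other chromosomes.

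**Figure D4:**
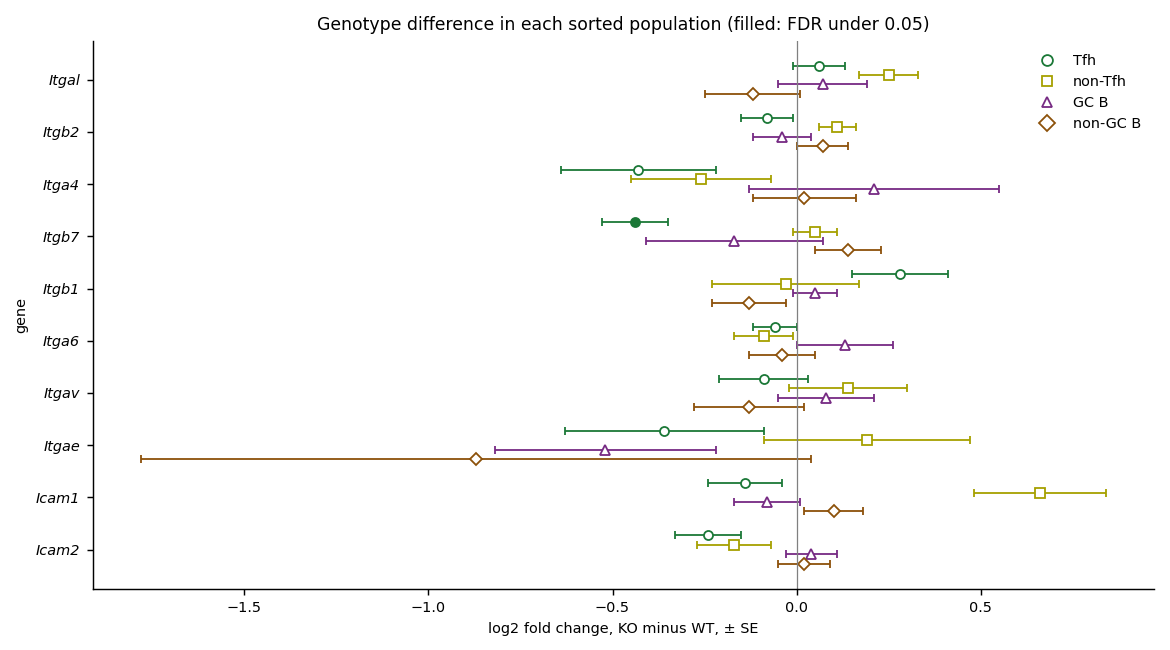
The horizontal axis shows the log2 fold change ± SE of S1PR4-/- over WT for each gene in the 4 populations (symbols and colors), with the filled symbol for an FDR under 0.05. Itgb7 in Tfh cells (-0.44) is the only filled symbol, Icam1 in non-Tfh cells (0.66) lies farthest to the right, and the widest error bar is that of Itgae in non-GC B cells (SE 0.91).

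The shifts within each lineage were repeated in S1PR4-/- mice. Between Tfh and non-Tfh cells 6 of 10 genes were called (43.4% of 13390 genes), the 5 called in WT and Itgb7, which fell by 0.92 (SE 0.08, FDR = 2.91e-07). Itgal rose by 1.10 (SE 0.07), Itgb1 rose by 2.32 (SE 0.19) and Itga4 fell by 3.10 (SE 0.22). Icam1 had a log2 fold change of -0.40 (SE 0.16, FDR = 0.0366) in S1PR4-/- cells against 0.37 in WT cells. That FDR was 0.502 with the B cell marker score as a covariate, 0.0870 without S1PR4-/- non-Tfh replicate 1 (-0.24) and between 0.0530 and 0.0744 without S1PR4-/- Tfh replicate 3, 5 or 6 or S1PR4-/- non-Tfh replicate 2. The test of the difference between genotypes gave -0.80 for Icam1 (SE 0.23, FDR = 0.263) and -0.49 for Itgb7 (SE 0.12, FDR = 0.129), so neither passed the threshold in this fit. Of all genes tested for this difference, 0.0139% had an FDR under 0.05. Both calls depended on the fit. For Itgb7 the FDR was 0.0212 by DESeq2, 0.0251 with the replicate number as a block and 0.687 in the fit of all 8 groups. For Icam1 it was 0.0775 by DESeq2, 0.0263 with that block and 0.221 in the fit of all 8 groups. No source ties the replicate number to a mouse, although sex by Xist matched in 6 of 6 T cell numbers of each genotype. If these numbers mark mice, the main fit left out that pairing.

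When GC B cells of S1PR4-/- mice were set against their non-GC B cells, 5 of 10 genes were called (48.2% of 13484 genes), and they were the 5 called in WT. Itgb7 fell by 2.64 (SE 0.17), Itga6 by 1.2 (SE 0.11) and Icam2 by 0.82 (SE 0.07), and Itgb1 rose by 1.81 (SE 0.10). Itga4 fell by 1.21 (SE 0.39, FDR = 0.0179), a call that was lost without S1PR4-/- non-GC B replicate 1 (-1.04, FDR = 0.0538). Without S1PR4-/- GC B replicate 3 its log2 fold change was -1.56 (FDR = 0.00182). For none of the 10 genes did the difference of the shifts between genotypes pass the threshold (every FDR was 1, log2 differences from -0.30 to 0.35). Standard errors of these differences reached 0.42 for Itga4 and 0.86 for Itgae, so the shifts are not shown to be equal. Over all genes tested 0% passed, with 664 genes at an unadjusted p under 0.05 and 6 called by DESeq2.

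Other genes of integrin biology were read beside the 10. A gene of low level could pass the filter through the population where it is high, so that counts over these lists describe the genes tested and no more, to be read beside the 43.2% of all genes called in the T cell comparison and the 47.8% called in the B cell comparison. Of 19 other integrin chains, 13 were tested between WT Tfh and non-Tfh cells, of which 6 rose, 3 fell and 4 were not called, with a median log2 fold change of 1.10. Itgb3, the β3 chain that pairs with αv, was at 8.42 to 19.2 CPM in Tfh and 99.7 to 145.1 CPM in non-Tfh cells and fell by 3.09 (SE 0.18, FDR = 1.61e-09). Itga5, the fibronectin receptor chain, was at 0.62 to 1.99 and 6.54 to 9.37 CPM and fell by 2.58 (SE 0.23, FDR = 1.52e-07). Itgb5, another αv partner, rose by 3.59 (SE 0.57, FDR = 5.84e-05), from at most 1.25 CPM to 3.36 to 7.28 CPM. Itgax (CD11c), a marker of dendritic cells, rose by 3.94 (SE 0.82, FDR = 0.000603) to 0.89 to 5.34 CPM, and dendritic cell markers (6 genes) summed to 5.30 to 18.1 CPM in Tfh against 1.02 to 3.79 CPM in non-Tfh cells, a part that was not tested.

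In B cells 7 of these 19 chains were tested, of which 4 rose and 3 were not called, with a median log2 fold change of 0.92. Itgb5 rose by 4.53 (SE 0.75, FDR = 0.000162), from at most 0.85 CPM in non-GC B to 3.43 to 9.68 CPM in GC B cells. Itgb3 rose by 0.88 (SE 0.22, FDR = 0.00343), from 9.28 to 25.1 CPM to 26.3 to 40.8 CPM, opposite to its fall in Tfh cells. Itgam, the α chain of the myeloid receptor Mac-1, rose by 1.77 (SE 0.58, FDR = 0.0168) to 3.33 to 12.9 CPM, and myeloid markers (8 genes) summed to 40.1 to 207.2 CPM in GC B and 13.7 to 55.1 CPM in non-GC B libraries, a part that was not tested either.

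Of 18 other integrin ligands, 8 were tested in WT T cells, of which 7 rose and 1 was not called (median log2 fold change 2.15), and 6 were tested in WT B cells, of which 3 rose and 1 fell (median 0.49). Vcam1, the ligand of α4β1, rose by 2.1 (SE 0.82, FDR = 0.0342) in Tfh and by 1.66 (SE 0.63, FDR = 0.0333) in GC B cells, at no more than 3.97 CPM. Its libraries overlapped between Tfh (0.78 to 3.31 CPM) and non-Tfh cells (at most 1.26 CPM). They also overlapped between GC B (0.45 to 3.97 CPM) and non-GC B cells (0.11 to 1.51 CPM). Endothelial and stromal markers (8 genes) summed to 1.73 to 6.6 CPM in WT Tfh and 0.23 to 1.01 CPM in WT non-Tfh libraries. In WT GC B libraries these markers summed to 0.14 to 1.08 CPM, against 0.27 to 5.76 CPM in WT non-GC B libraries. Their part in Vcam1 was not tested. Spp1 (osteopontin), an αv ligand, rose by 3.66 (SE 0.74, FDR = 0.000750) to 1.97 to 3.28 CPM in GC B cells. Lgals3 (galectin-3) rose by 2.21 (SE 0.31, FDR = 1.43e-05) to 33.6 to 65.3 CPM in Tfh cells, and Icam5, a further LFA-1 ligand, by 3.13 (SE 0.53, FDR = 9.69e-05) to 1.80 to 3.92 CPM. Nid1, the basement membrane protein nidogen, fell by 1.19 (SE 0.31, FDR = 0.00423) in GC B cells.

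The next list holds genes that switch integrins on from inside the cell or link them to the cytoskeleton. Among 37 activation and adaptor genes, 3 rose, 7 fell and 23 were not called in WT Tfh cells (median log2 fold change 0.24), and 4 rose, 14 fell and 14 were not called in WT GC B cells (median -0.59). Rasgrp2 (CalDAG-GEFI), an exchange factor for Rap1, fell in both, by 2.53 in Tfh (SE 0.11, FDR = 1.13e-10) and by 1.51 in GC B cells (SE 0.14, FDR = 1.01e-06). It was at 33.1 to 50.9 CPM in Tfh and 207.4 to 278.3 CPM in non-Tfh cells, and at 42.4 to 79.8 CPM in GC B and 144.3 to 198.4 CPM in non-GC B cells. Rapgef6, another Rap1 exchange factor, fell by 1.62 (SE 0.13), Rasgrp1 fell by 1.49 (SE 0.10) and Rasa3, a GTPase activating protein for Ras and Rap1, fell by 1.32 (SE 0.07) in Tfh cells. In GC B cells Rassf5 (RAPL), which links Rap1 to LFA-1, fell by 1.15 (SE 0.14, FDR = 8.92e-06) and the focal adhesion gene Zyx by 1.06 (SE 0.18, FDR = 0.000188), while Ptk2 (focal adhesion kinase) rose by 1.21 (SE 0.14, FDR = 6.08e-06).

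Of 15 other adhesion and homing receptors in the table, 3 rose, 5 fell and 7 were not called in WT Tfh cells (median 0.06), and 2 rose, 6 fell and 6 were not called in WT GC B cells (median -0.44). Cd44, the hyaluronan receptor of activated cells, rose by 2.30 in Tfh (SE 0.13, FDR = 1.77e-09) and by 1.56 in GC B cells (SE 0.13, FDR = 3.93e-07). Alcam rose by 2.83 (SE 0.52) and Cd82 by 1.38 (SE 0.08) in Tfh cells. In GC B cells Cd9 rose by 1.34 (SE 0.27) and Pecam1 fell by 1.33 (SE 0.15). No gene of these 4 lists was called between genotypes in any population. Rasa3 (-0.39, SE 0.08, FDR = 0.0303) and Selplg (-0.49, SE 0.11, FDR = 0.0447), the P-selectin ligand, had an FDR under 0.05 between genotypes in Tfh cells and stayed under the fold threshold, and Selplg is named after its value was seen.

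For each of the 10 genes, the genes most like it over all 45 libraries was taken from 8887 genes with a mean of at least 10 CPM. Pearson correlations of log2 CPM are given as a description, since the libraries share 4 populations and the points are mostly the distances between these. Itgal ran with Prkca (0.986) and Zfpm1 (0.986), Itgb2 with Inpp5b (0.991) and Itgb7 with Kbtbd11 (0.991) and Ski (0.988). The other gene closest to Itgb2 is spelled 9-Sep in the table (0.987). Itga4 was most like Cmah (0.954) and Dnajb4 (0.947), Itga6 like Pdk1 (0.982) and Flt3l (0.980), and Itgae like Cd5 (0.974) and Chn2 (0.968). Itgb1 was most like Pkm (0.970) and Acot7 (0.968), Icam1 like Dbnl (0.908) and Ddx54 (0.899) and Icam2 like Fam69a (0.955). Itgav had the weakest companions, Iqgap1 (0.858) and Uhmk1 (0.837).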

How the data were processed

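The authors deposited a table of expected counts per gene, made per the labels and methods with cutadapt 2.10, STAR 2.5.3 on mm10, Picard and RSEM 1.3.0. Of the values, 8.83% were not whole, since RSEM shares reads among transcripts, and they were rounded. The methods name GENCODE M30, while symbols and coordinates used here follow release M21. Totals ran from 26299429 to 45548215 per library. Genes with low counts were removed with filterByExpr for each comparison, libraries were scaled by TMM, and edgeR 4.0.16 (R 4.3.3) gave quasi-likelihood tests on the groups compared, with Benjamini-Hochberg adjustment over all genes tested. The standard error was taken as the log2 fold change over the root of F. CPM in the text use TMM over all 45 libraries, and log2 CPM for correlations a prior count of 2. Genes differing in shifts between lineages or genotypes were tested as interaction terms at an FDR of 0.05. The script was tested on simulated data.

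Alternatives were RLE size factors, total counts, no filter, DESeq2 1.42.0, limma 3.58.1 with voom, all 8 groups in a single fit and the replicate number as a block. Others were Xist or marker scores as covariates, and leaving out each library. In pairwise comparisons between genotypes or between lineages, the block joined same-numbered libraries of different mice. A marker score was the mean log2 CPM over the genes of a marker list. Plasma and regulatory T cell marker covariates were chosen after seeing the data. The 10 genes and all lists were chosen with earlier results of these data known. From each other list, up to 4 called genes with the largest change and a mean of at least 1 CPM were named in each WT comparison, and for each of the 10 genes the 2 genes most like it, and some genes that these rules name are not reported here.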

Additional observations from a re-analysis of the deposited data

Results flagged for a closer look

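In 5 of 80 groups tested, the highest or lowest library lay farther from the others than Dixon's 95% value allows on the log2 CPM scale, and chance alone gives about 1 in 20. Itgal and Itgb2 were both lowest in S1PR4-/- Tfh replicate 5 (1269 CPM with a ratio of 0.646, and 863.4 CPM with a ratio of 0.629). Itga4 was lowest in S1PR4-/- non-Tfh replicate 1 (34.3 CPM, ratio 0.788). In S1PR4-/- non-GC B cells, Itgav was lowest in replicate 1 (25.4 CPM, ratio 0.947) and Icam1 in replicate 3 (122.9 CPM, ratio 0.868). On the linear CPM scale, a check added after seeing the data, Itga4, Itgav and Icam1 also passed, Itgal and Itgb2 did not, and 3 other libraries did, namely WT GC B replicate 6 for Itgb7 (176.9 CPM, ratio 0.730), WT non-GC B replicate 3 for Itgae (1.39 CPM, ratio 0.736) and WT Tfh replicate 1 for Icam2 (63.7 CPM, ratio 0.631).

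For 5 genes the shift from non-GC B to GC B cells differed from the shift from non-Tfh to Tfh cells in WT mice by an interaction test with edgeR. The log2 differences, B cell minus T cell, were -1.94 for Itgb7, 1.5 for Itga4, -0.73 for Itgav, 0.69 for Itga6 and -1.37 for Itgal. Lineage and day of sorting cannot be told apart in these differences.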

How the results depend on the processing

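Over 3140 recomputed values of single genes, 3028 kept their direction and side of the threshold, 52 lost and 17 gained the threshold, and 43 changed sign. Where no cause is visible from the alternative itself, the cause was not tested. None of the changes in sign concerned a called gene. Itgae between S1PR4-/- Tfh and non-Tfh cells was 0.393 with the B cell marker covariate. Itgb1 between WT GC B and non-Tfh cells was 0.02 with RLE size factors and with DESeq2, 0.026 with limma voom and 0.025 with the replicate block. Between genotypes, Itgal in Tfh cells was -0.032 with Xist as a covariate, Itgb7 in non-Tfh cells -0.004 and Itgae there -0.36 with the B cell marker covariate, and Itgae -0.277 with the regulatory T cell covariate. Itga4 was -0.029 (limma voom) and -0.011 (replicate block) in GC B cells, and -0.005, -0.012 and, with the T cell marker covariate, -0.019 in non-GC B cells. In the interactions, Icam2 in B cells was -0.001 with total counts, Itga4 in B cells -0.014 with limma voom, and the shift difference of Itgb2 -0.001 with the replicate block. Between genotypes in non-Tfh cells DESeq2 and the fit of all 8 groups each called 1 of the 10 genes, Icam1, instead of 0. For the T cell interaction DESeq2 called 1 gene (Itgb7) and the replicate block 2 (Itgb7, FDR = 0.0251, and Icam1, FDR = 0.0263). Deviations from the group mean correlated positively in all same-numbered T cell pairs (0.0454 to 0.2054 in WT, 0.0866 to 0.1625 in S1PR4-/- mice). In B cells these correlations ran from -0.0011 to 0.1029 in WT and from -0.0452 to 0.0177 in S1PR4-/- mice. The best match was the own number in 4 of 6, 6 of 6, 4 of 5 and 0 of 4 libraries, a hint from the data and not the design. Sex by Xist matched between same-numbered libraries in 6 of 6 WT and 6 of 6 S1PR4-/- T cell numbers, but in 4 of 5 WT and 1 of 4 S1PR4-/- B cell numbers. Within numbers, Icam1 was higher in Tfh than in non-Tfh cells in 6 of 6 WT and 0 of 6 S1PR4-/- numbers. Since not every correlation was over 0.1 and no source ties a number to a mouse, the number was not treated as a pairing. If T cell numbers do mark mice, the main fits of Tfh against non-Tfh cells and of their interaction left out that pairing. The replicate block is then the fit that holds it.

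Without single libraries, values that changed sign ranged from -0.103 to 0.045 for Itgal between WT GC B and non-GC B cells, from -0.145 to 0.082 for Itgb1 between genotypes in non-Tfh cells and from -0.02 to 0.061 for the shift difference of Itgb2. Between genotypes in GC B cells the ranges were -0.01 to 0.078 for Icam2, -0.311 to 0.087 for Itgb7, -0.152 to 0.366 for Itga4, -0.017 to 0.143 for Itgav and -0.042 to 0.116 for Itgal. In non-GC B cells they were -0.014 to 0.042 for Icam2, -0.154 to 0.114 for Itga4 and -0.098 to 0.021 for Itga6. In the T cell interaction they were -0.139 to 0.027 for Icam2 and -0.289 to 0.001 for Itga4, and in the B cell interaction -0.015 to 0.06 for Icam2, -0.351 to 0.979 for Itgae and -0.158 to 0.358 for Itga4. Leaving out libraries was not run for GC B against Tfh and GC B against non-Tfh cells. Genes called among all tested between genotypes moved from 67 to between 10 (B cell covariate) and 198 (DESeq2) in Tfh, from 15 to between 8 and 52 in non-Tfh, from 8 to between 6 and 14 in GC B and from 7 to between 5 and 25 in non-GC B cells, and in the interactions from 2 to between 1 and 76 in T cells and from 0 to at most 6 in B cells.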
